A study of Mus musculus with 13 samples.

Results

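Nap1l1, Cacna2d2, Glcci1, Cyp27a1, Cgnl1, Sptb, Rassf10, Cdr2, Aifm3 and Ncam1 are 10 transcripts attributed to podocytes that were lower in mouse glomeruli at day 5 of an antibody-induced membranous nephropathy (MN) than in control glomeruli. They were chosen by measured values, namely the difference between the day 5 MN and the control libraries, from a wider set of podocyte transcripts shown as lower in the study. The 10 are part of 32 such transcripts and of 35967 gene symbols in a table of TPM, a transcript abundance scaled to transcript length and library total. Their expression in podocytes cannot be checked in RNA of whole glomeruli. The difference at day 5 is therefore a description of what chose them, whereas the day 1 MN libraries took no part in the choice. All 10 passed the filter on low values (1 TPM or more in no fewer than 4 libraries), as did 14322 symbols in all.

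Glomeruli came from wildtype male Balb/c mice, 1 library per mouse. Controls received 2.0 mg of rabbit preimmune IgG intraperitoneally (n = 5), and MN mice received 2.0 mg of rabbit anti-THSD7A IgG and were examined after 1 day (day 1 MN, n = 4) or 5 days (day 5 MN, n = 4). Control mice of both time points were combined into 1 group, so a control library cannot be assigned to a day. The model is a passive transfer of rabbit antibody, and the RNA is that of whole isolated glomeruli, which hold podocytes, endothelial and mesangial cells and a variable remainder of tubule.

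Podocytes are the epithelial cells that wrap the glomerular capillaries with interdigitating foot processes joined by the slit diaphragm. THSD7A is a transmembrane protein of those foot processes and one of the antigens that autoantibodies bind in human membranous nephropathy, in which immune deposits form beneath the podocyte. The 10 proteins belong to unrelated families. Nap1l1 is a nucleosome assembly protein that chaperones histones H2A and H2B. Glcci1 was named for its induction by glucocorticoids, Cdr2 is a coiled-coil protein known as an antigen in paraneoplastic cerebellar degeneration, and Rassf10 carries a Ras association domain. Cacna2d2 is an auxiliary subunit of voltage-gated calcium channels that aids their delivery to the membrane. Cgnl1 (paracingulin) lies on the cytoplasmic side of tight and adherens junctions, Sptb is the beta spectrin best known from the red cell membrane skeleton, and Ncam1 is a cell adhesion molecule of the immunoglobulin superfamily. Cyp27a1 is the mitochondrial sterol 27-hydroxylase of bile acid synthesis, and Aifm3 is a flavoprotein of the apoptosis-inducing factor family.

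The libraries carried the markers of their labelled tissue. The 16 podocyte reference genes, which include nephrin (Nphs1) and Wt1, summed to between 8670 and 11200 TPM in controls, 9080 and 11200 TPM at day 1 and 9820 and 9930 TPM at day 5. Endothelial marker sums lay between 8820 and 13100 TPM over all libraries, mesangial sums between 1260 and 2300 TPM and leukocyte sums between 51.4 and 93.0 TPM. Proximal tubule marker sums ranged from 459 to 1390 TPM in controls, with the highest in control replicate 5, from 881 to 1310 TPM at day 1 and from 635 to 831 TPM at day 5. Control replicate 2 had the lowest podocyte sum. Sequencing depth cannot be read from TPM, so counting error is unknown and the spread between mice is the only error given.

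All 10 genes are protein-coding in GRCm39, and exon overlap with other genes touched some of them. Nap1l1 lies at chr10:111308734-111334026, Cacna2d2 at chr9:107276811-107406543, Glcci1 at chr6:8509391-8597548, Cyp27a1 at chr1:74752314-74777056, Rassf10 at chr7:112553169-112556664 and Aifm3 at chr16:17307327-17325349, all on the plus strand. Cgnl1 at chr9:71533791-71678884, Sptb at chr12:76627247-76757321, Cdr2 at chr7:120556259-120581539 and Ncam1 at chr9:49413436-49710357 are on the minus strand. Rassf10 has 1 exon in its canonical transcript, against 38 in Cacna2d2 and 36 in Sptb. The level of Glcci1 is uncertain to the extent that reads are shared with Gm45062, a same-strand gene that matches 84.5% of its transcript at 100% identity and reached at most 3.1 TPM, and with the overlapping pseudogene Gm16042 on the opposite strand, which reached at most 16.3 TPM. A Nap1l1 pseudogene, Gm4204, matched 72.2% of the Nap1l1 transcript at 99.5% identity and reached at most 0.261 TPM. Exons of Cyp27a1 overlap Prkag3 on the opposite strand, which reached at most 5.11 TPM. Of the Aifm3 exon bases, 1683 lie within Gm59875 on the opposite strand, for which no TPM was listed. Of the Ncam1 exon bases, 2049 lie within Gm11149, also on the opposite strand. Fbxo5 matched a smaller part of the Glcci1 transcript, 27.1% at 91.2% identity, and reached at most 10.6 TPM.

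RefSeq promoter windows of GRCm38.p6 (250 bases before to 50 after the start site) were matched for 8 of the 10 genes, Glcci1 having 2 of the 9 windows. These windows were searched on both strands for short motifs named after transcription factors of the podocyte and for a glucocorticoid receptor type. That the 10 transcripts were lower together at day 5 follows from how they were chosen. The WT1/EGR type GCGTGGG, the LMX1B type TAATTA and the FOX type GTAAACA had no match in the 9 windows, and occurred in 5.04%, 5.29% and 3.65% of all 32851 promoters. The E-box CAGCTG, present in 16.3% of promoters, was found in Cyp27a1, and the MAF type TGCTGAC, present in 4.67%, in Nap1l1. The TEAD type GGAATG, present in 14.7%, was found in Cacna2d2 and, on the opposite strand, in the upstream window of Glcci1. The glucocorticoid receptor type, present in 0.475%, matched once, in Sptb, across the start site from base -9. No motif was shared by more than 2 of the genes, and a match of letters is not evidence of binding. The 250 upstream bases of the 4 genes with a match wholly before the start site follow, 5′ to 3′ on the gene's own strand, with the matched letters in capitals.
Cyp27a1, chr1:74713285-74713534, plus strand: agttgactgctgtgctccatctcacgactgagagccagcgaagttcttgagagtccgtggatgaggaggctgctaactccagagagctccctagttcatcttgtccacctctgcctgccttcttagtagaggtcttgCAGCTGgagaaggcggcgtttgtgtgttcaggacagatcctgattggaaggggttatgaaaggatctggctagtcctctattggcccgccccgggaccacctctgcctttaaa
Nap1l1, chr10:111472977-111473226, plus strand: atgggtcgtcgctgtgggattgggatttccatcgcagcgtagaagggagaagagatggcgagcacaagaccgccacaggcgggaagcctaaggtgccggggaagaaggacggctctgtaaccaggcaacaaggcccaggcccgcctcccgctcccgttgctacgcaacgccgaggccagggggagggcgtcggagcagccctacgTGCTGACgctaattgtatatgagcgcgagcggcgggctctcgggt
Cacna2d2, chr9:107399630-107399879, plus strand: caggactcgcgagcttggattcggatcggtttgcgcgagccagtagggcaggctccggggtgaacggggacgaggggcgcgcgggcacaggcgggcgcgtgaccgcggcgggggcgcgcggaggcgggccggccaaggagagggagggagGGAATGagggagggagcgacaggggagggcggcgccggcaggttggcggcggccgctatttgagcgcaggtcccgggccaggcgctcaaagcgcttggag
Glcci1, chr6:8509350-8509599, plus strand: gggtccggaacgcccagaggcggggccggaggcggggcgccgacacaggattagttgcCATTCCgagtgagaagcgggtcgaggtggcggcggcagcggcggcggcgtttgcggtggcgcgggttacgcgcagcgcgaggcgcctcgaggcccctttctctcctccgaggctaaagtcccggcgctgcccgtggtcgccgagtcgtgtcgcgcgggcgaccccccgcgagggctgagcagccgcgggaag

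In control glomeruli the 10 transcripts covered a wide span of abundance, from 421 TPM for Nap1l1 to 7.53 TPM for Sptb. TPM is scaled for transcript length, so levels can be set side by side between genes. The control mean of Nap1l1 stood above 97.8% of the genes tested, that of Cgnl1 above 92.0%, and that of Sptb above 27.5%. In decreasing order the control means were those of Nap1l1, Cgnl1, Cdr2, Cyp27a1, Glcci1, Aifm3, Cacna2d2, Rassf10, Ncam1 and Sptb. The ranges over control libraries overlapped for the neighbours Cyp27a1 and Glcci1, Glcci1 and Aifm3, and Ncam1 and Sptb, and for no other neighbours. The order changed at day 5 for Aifm3, which lay above Cacna2d2 in 5 of 5 control libraries and in 1 of 4 day 5 libraries.

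**Figure D1:**
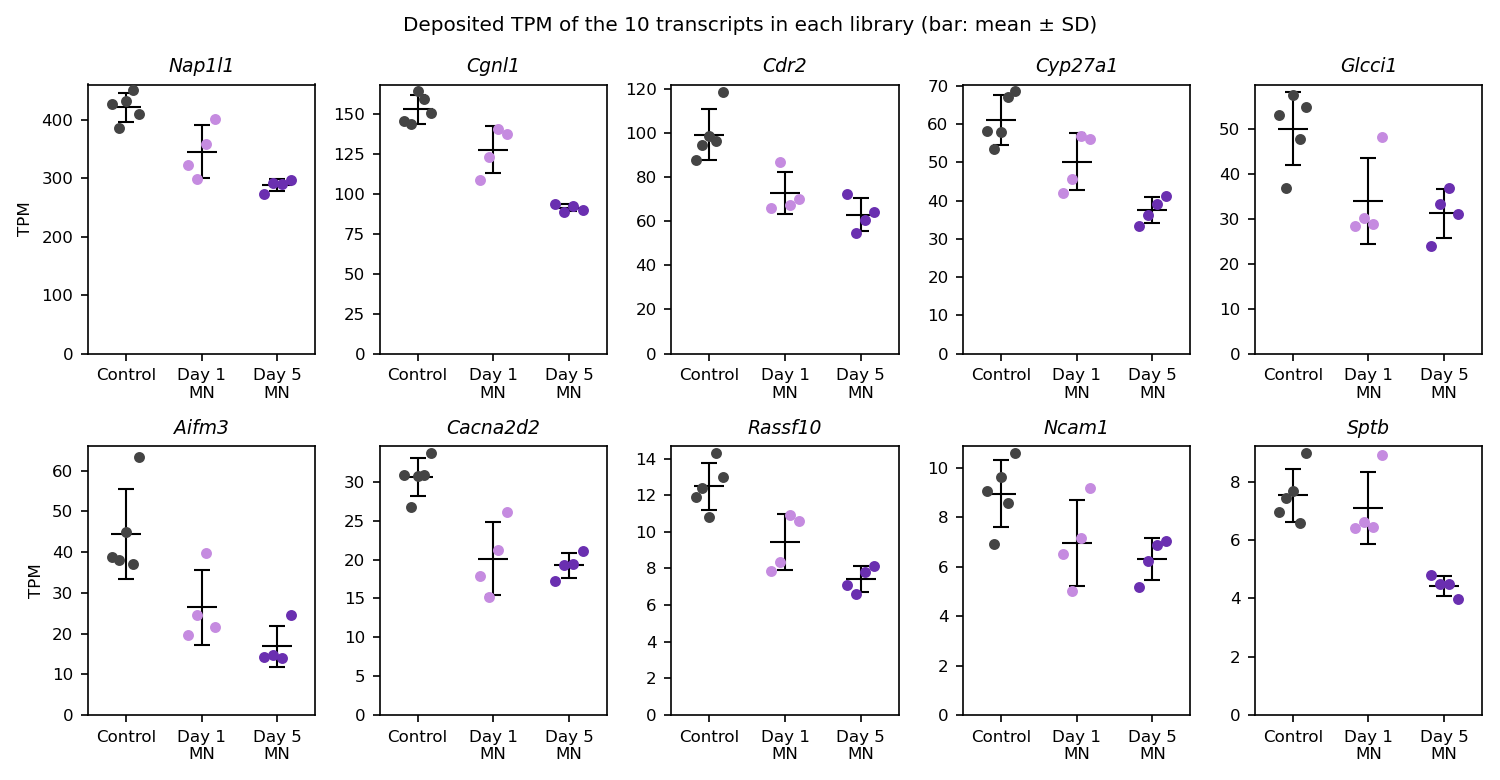
Deposited TPM (linear axis from 0) of the 10 transcripts in each library, grouped as control (5 mice), day 1 MN (4 mice) and day 5 MN (4 mice); points are libraries, and bars are the mean ± SD. Day 5 libraries lie below every control library for 9 transcripts and 3 of 4 do so for Ncam1. Day 1 libraries range from control values down to day 5 values, and for Cacna2d2 and Ncam1 the lowest lies below every day 5 library.

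At day 5 every transcript had a lower mean than in controls, between 37.9% of the control mean for Aifm3 and 70.5% for Ncam1. On the log2 scale (log2 of scaled TPM + 0.5) the median difference of the 10 was -0.65, with a range of -1.35 to -0.44, and the median over all genes tested was -0.003. By the call used for all genes (limma, adjusted p under 0.05 and a log2 difference beyond 0.5), 9 of the 10 were lower, all but Ncam1, against 0.789% of genes tested called lower and 2.42% called higher. The call of Glcci1 was at the edge, with an adjusted p of 0.0479 by limma, and was lost in 15 of 26 alternatives, among them 11 of the 13 fits that left out 1 library (all but those without control replicate 2 or day 1 replicate 4). Nap1l1 lost its call without control replicate 4 (-0.49) and without day 5 replicate 3 (-0.49). All 4 day 5 libraries lay below all 5 control libraries for 9 of the 10, again without Ncam1, against 5.71% of genes tested. These counts follow from how the transcripts were chosen. On the fold threshold of 0.5, Nap1l1 lay just inside with a log2 difference of -0.51 and Ncam1 outside with -0.44, and Ncam1 missed the p threshold as well (limma adjusted p = 0.145). In whole glomeruli, fewer cells of a type and less RNA per cell cannot be told apart.

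Aifm3 had the lowest day 5 level relative to its control. Its TPM was 38.7, 38.2, 44.9, 37.1 and 63.5 in controls, 19.7, 24.5, 39.8 and 21.7 at day 1, and 14.3, 14.7, 13.9 and 24.5 at day 5. The group means were 44.5 ± 11.1 (SD, n = 5), 26.4 ± 9.11 (SD, n = 4) and 16.9 ± 5.08 TPM (SD, n = 4). Control replicate 5 stood well above the other controls, day 1 replicate 3 lay within the control range, and day 5 replicate 4 stood above the other day 5 libraries. The log2 difference from control was -0.72 ± 0.23 (SE) at day 1 (limma, adjusted p = 0.253) and -1.35 ± 0.23 (SE) at day 5, and between -1.53 and -1.20 at day 5 when any 1 library was left out.

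Cgnl1 and Nap1l1, the most abundant of the group, had the tightest day 5 values. Cgnl1 had 146, 144, 165, 160 and 151 TPM in controls, 109, 123, 141 and 138 TPM at day 1, and 93.9, 88.9, 92.8 and 90.2 TPM at day 5. The 3 groups did not overlap, with means of 153 ± 9.0 (SD, n = 5), 128 ± 14.8 (SD, n = 4) and 91.4 ± 2.30 TPM (SD, n = 4). Nap1l1 had 427, 385, 432, 451 and 410 TPM in controls, 322, 298, 359 and 401 TPM at day 1, and 273, 292, 290 and 297 TPM at day 5. Day 1 replicate 4 lay within the control range of Nap1l1, and the day 5 libraries lay below every other library. Means for Nap1l1 were 421 ± 24.8 (SD, n = 5), 345 ± 45.2 (SD, n = 4) and 288 ± 10.5 TPM (SD, n = 4). The day 5 log2 differences were -0.70 ± 0.07 (SE) for Cgnl1 and -0.51 ± 0.08 (SE) for Nap1l1. Relative to the podocyte reference genes the Nap1l1 difference was -0.43, short of the threshold of 0.5.

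Sptb was the transcript whose day 1 level was closest to control. Its TPM was 6.97, 7.44, 7.69, 6.57 and 8.97 in controls, 6.4, 6.6, 6.44 and 8.92 at day 1, and 4.80, 4.49, 4.48 and 3.96 at day 5. Day 1 and control libraries overlapped, and the day 5 libraries lay below all the others. The mean was 7.53 ± 0.916 (SD, n = 5) in controls, 7.09 ± 1.22 (SD, n = 4) at day 1 and 4.43 ± 0.348 TPM (SD, n = 4) at day 5. The log2 difference was -0.04 ± 0.13 (SE) at day 1 (limma, adjusted p = 0.932), with a sign that depended on the processing, and -0.67 ± 0.13 (SE) at day 5. Sptb is also a red cell gene, and the sum of erythroid markers was 208 to 474 TPM in controls, 92.8 to 282 TPM at day 1 and 206 to 474 TPM at day 5. Their part in the Sptb values was not tested.

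Cyp27a1 and Rassf10 had day 1 means between those of control and day 5. Cyp27a1 measured 58.3, 53.4, 58, 67.2 and 68.6 TPM in controls, 42.1, 45.7, 56.9 and 56.1 TPM at day 1, and 33.4, 36.1, 39.2 and 41.1 TPM at day 5. Of the day 1 libraries 2 lay below all controls, and all day 5 libraries lay below all day 1 libraries. The mean was 61.1 ± 6.52 (SD, n = 5), 50.2 ± 7.45 (SD, n = 4) and 37.4 ± 3.43 TPM (SD, n = 4), with a day 5 log2 difference of -0.66 ± 0.10 (SE). Rassf10 had 11.9, 12.4, 10.8, 14.3 and 13 TPM in controls, 7.88, 8.38, 10.9 and 10.6 TPM at day 1, and 7.10, 6.58, 7.83 and 8.14 TPM at day 5. Only day 1 replicate 3 of Rassf10 reached the control range, and day 5 replicate 4 fell within the day 1 range. Its means were 12.5 ± 1.29 (SD, n = 5), 9.42 ± 1.51 (SD, n = 4) and 7.41 ± 0.706 TPM (SD, n = 4), with a day 5 log2 difference of -0.68 ± 0.11 (SE).

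Cacna2d2 and Glcci1 had day 1 means close to their day 5 means. Cacna2d2 had 30.9, 26.8, 30.7, 30.9 and 33.7 TPM in controls, 17.9, 15.2, 21.3 and 26.1 TPM at day 1, and 17.2, 19.3, 19.4 and 21.1 TPM at day 5. All MN libraries of Cacna2d2 lay below all controls, and the day 5 values fell inside the day 1 range. Its mean was 30.6 ± 2.44 (SD, n = 5), 20.1 ± 4.67 (SD, n = 4) and 19.3 ± 1.59 TPM (SD, n = 4). Glcci1 had 53.1, 36.9, 57.5, 47.8 and 54.9 TPM in controls, 28.5, 30.1, 28.8 and 48.2 TPM at day 1, and 23.9, 33.3, 36.8 and 31.0 TPM at day 5. Day 1 replicate 4 of Glcci1 sat among the controls, apart from the other 3 day 1 libraries, and control replicate 2 was the lowest control by a wide margin. Means for Glcci1 were 50.1 ± 8.18 (SD, n = 5), 33.9 ± 9.56 (SD, n = 4) and 31.3 ± 5.45 TPM (SD, n = 4). The log2 difference at day 5 was -0.62 ± 0.13 (SE) for Cacna2d2 and -0.64 ± 0.17 (SE) for Glcci1.

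Cdr2 and Ncam1 completed the group. Cdr2 had 87.9, 94.7, 99.0, 96.5 and 119 TPM in controls, 66.3, 87.0, 67.6 and 70.2 TPM at day 1, and 72.6, 54.9, 60.7 and 64.4 TPM at day 5. MN libraries of Cdr2 lay below every control on both days, though day 1 replicate 2 came close to the lowest control. Its mean was 99.5 ± 11.8 (SD, n = 5), 72.8 ± 9.62 (SD, n = 4) and 63.1 ± 7.41 TPM (SD, n = 4), and its day 5 log2 difference was -0.62 ± 0.12 (SE). Ncam1 had 9.05, 6.91, 9.63, 8.58 and 10.6 TPM in controls, 6.5, 5.01, 7.14 and 9.18 TPM at day 1, and 5.16, 6.21, 6.87 and 7.03 TPM at day 5. Control and MN libraries of Ncam1 overlapped on both days, through the low control replicate 2 and the high day 1 replicate 4. Its mean was 8.96 ± 1.38 (SD, n = 5), 6.96 ± 1.73 (SD, n = 4) and 6.32 ± 0.850 TPM (SD, n = 4), and its day 5 log2 difference was -0.44 ± 0.16 (SE).

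Whether the transcripts were already lower after 1 day was asked of the day 1 libraries, which the choice had not used. The control libraries are shared with the comparison that chose the transcripts, so the day 1 differences are not independent of it. All 10 day 1 differences were below 0 (that of Sptb turned to 0.02 when scaled to the podocyte reference genes), with a median log2 difference of -0.33 and a range of -0.72 to -0.04, beside a median of -0.003 over all genes tested, of which 50.8% were below 0. None of the 10 was called by limma, with adjusted p-values from 0.145 to 0.932, beside 0.0349% of genes tested called lower and 0.0559% called higher. That background rested on control replicate 5: 13 genes were called in all with it and 218 without it, where 0 of the 10 were called. At an unadjusted p under 0.05, 8 of the 10 were lower, all but Sptb and Ncam1, against 5.31% of all genes tested. All 4 day 1 libraries lay below all 5 controls for 3 of the 10, Cacna2d2, Cgnl1 and Cdr2, against 3.32% of all genes tested.

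The transcripts with the largest day 1 differences were Aifm3, Cacna2d2 and Glcci1. Cacna2d2 had a log2 difference of -0.57 ± 0.13 (SE, limma adjusted p = 0.145) and Glcci1 of -0.53 ± 0.17 (SE, limma adjusted p = 0.268). The difference of Cacna2d2 passed the call without day 1 replicate 4, at -0.70 (limma adjusted p = 0.046), and without both that library and control replicate 5, at -0.65 (limma adjusted p = 0.0372). Its adjusted p ranged from 0.046 to 0.404 over the fits that left out 1 library. Cdr2 stood at -0.40 ± 0.12 (SE, limma adjusted p = 0.241) and Rassf10 at -0.35 ± 0.11 (SE, limma adjusted p = 0.26). Ncam1 at -0.32, Nap1l1 at -0.25, Cyp27a1 at -0.24 and Cgnl1 at -0.22 had limma adjusted p-values between 0.248 and 0.44. Proximal tubule markers were all higher at day 1 by their fitted differences, with a median log2 difference of 0.75 and 0 of 10 called, and their part in the day 1 values was not tested beyond a fit with a tubule score as covariate, in which the median of the 10 transcripts was -0.52. Of the 7 distal tubule and collecting duct markers, 1 was called higher at day 1, Pvalb (log2 difference 1.43, limma adjusted p = 0.0395), and 0 were called at day 5.

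**Figure D2:**
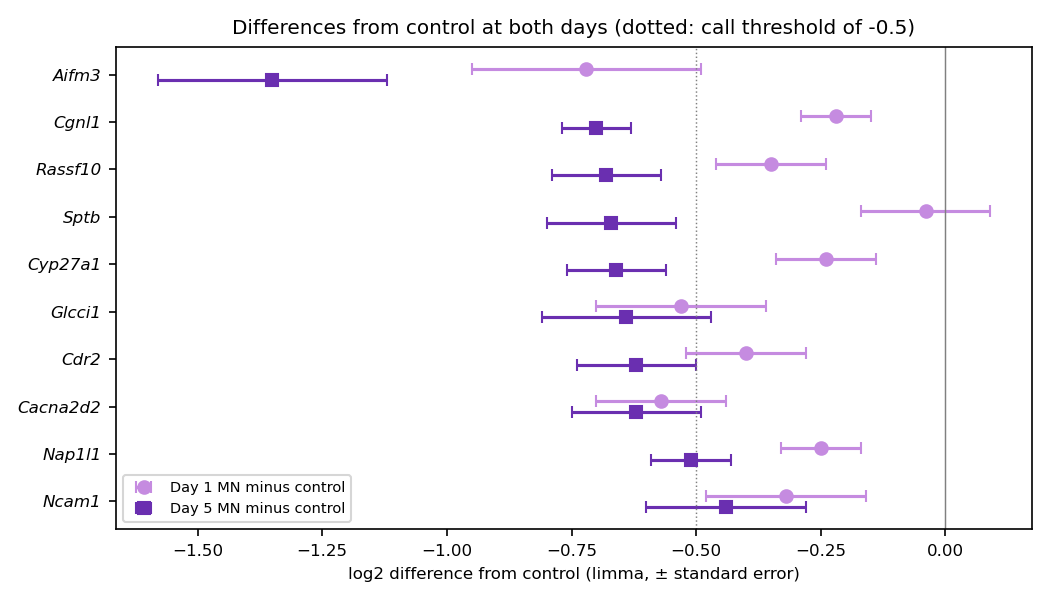
log2 difference from control (horizontal axis, limma on log2 of scaled TPM + 0.5) of each transcript at day 1 MN and day 5 MN, with bars of ± 1 standard error; the dotted line marks the call threshold of -0.5. Day 5 values lie to the left of day 1 values throughout, by as little as 0.05 for Cacna2d2 and as much as 0.63 for Aifm3.

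Between day 1 and day 5 the transcripts differed in how far apart their means lay. As a description, since the day 5 libraries chose the members, the day 5 minus day 1 log2 difference was -0.63 ± 0.24 (SE) for Aifm3, -0.62 ± 0.14 (SE) for Sptb, -0.48 ± 0.08 (SE) for Cgnl1 and -0.42 ± 0.11 (SE) for Cyp27a1. It was -0.05 ± 0.13 (SE) for Cacna2d2, -0.11 ± 0.18 (SE) for Glcci1 and -0.12 ± 0.17 (SE) for Ncam1, each smaller than its standard error. The remaining values were -0.33 for Rassf10, -0.26 for Nap1l1 and -0.21 for Cdr2. All 4 day 5 libraries lay below all 4 day 1 libraries for Nap1l1, Cyp27a1, Cgnl1 and Sptb. No day 5 library did so for Cacna2d2 and Ncam1. The share of all genes tested with such a separation of the days was not computed, so this count has no background. Sptb alone met the call between the days, against 0.398% of genes tested called lower and 1.41% called higher. The median over the 10 was -0.30 and over all genes tested 0.005.

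Single libraries showed how far the transcripts moved as a group. The median of the 10, centred on each transcript's control mean, was between -0.19 and 0.21 in the control libraries and between -0.66 and -0.59 in the day 5 libraries. Day 1 libraries were more varied, at -0.50, -0.45, -0.20 and -0.08 for replicates 1 to 4. In day 1 replicate 1 all 10 transcripts were below every control, in replicate 2 it was 9, in replicate 3 it was 6 and in replicate 4 it was 5. In the day 5 libraries it was 10, 10, 10 and 9, counts that follow from how the transcripts were chosen. The matching share of all genes tested was not computed for single libraries, so none of these counts has a background. Day 1 replicate 4, the library nearest to control, had the highest distal tubule marker sum of all libraries, 956 TPM, and a podocyte sum of 11200 TPM, at the top of the control range.

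**Figure D3:**
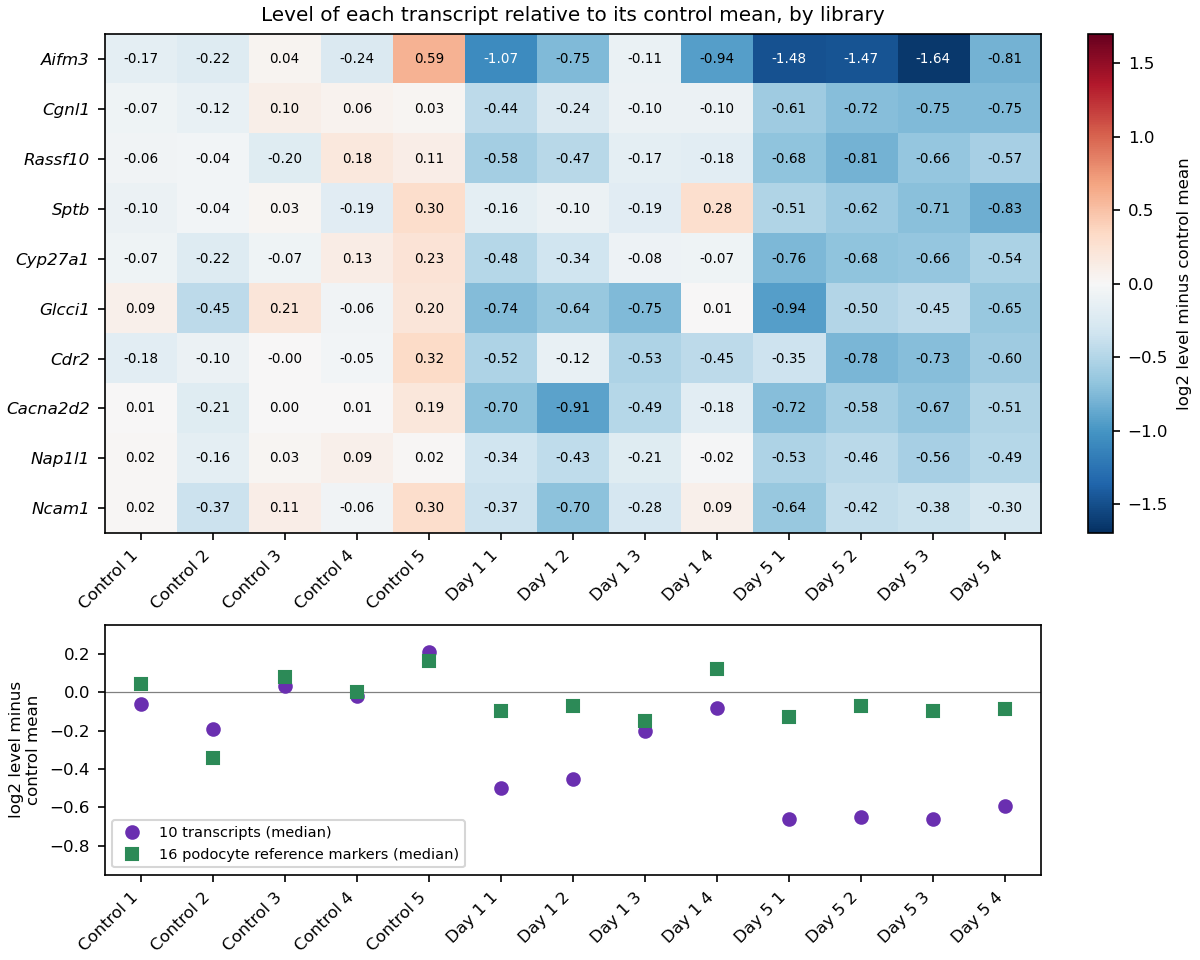
Upper panel, log2 level of each transcript minus its control mean (colour and printed value) in each of the 13 libraries, with transcripts ordered by their day 5 difference; lower panel, the median over the 10 transcripts and over the 16 podocyte reference markers in each library. The transcripts' medians lie between -0.66 and -0.59 at day 5 while the reference medians lie between -0.13 and -0.07.

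The podocyte reference genes are set here beside the 10, which were chosen for low day 5 values. Of the 16, 0 were called at either day or between the days. Over all genes tested, 0.789% were called lower and 2.42% higher at day 5, so 0 of 16 is near those shares. The median log2 difference of the 16 was -0.05 at day 1 and -0.10 at day 5. At a limma adjusted p under 0.05 without the fold threshold, Synpo, an actin-associated protein of foot processes, was lower at day 5 (log2 difference -0.46, adjusted p = 0.00197), as was Cd2ap, an adaptor of the slit diaphragm (-0.29, adjusted p = 0.0117). The Synpo difference was beyond that of Ncam1 among the 10 (-0.44). Tcf21, a podocyte transcription factor, averaged 301 TPM in controls and 367 TPM at day 5. Library by library, the median of the 10 transcripts minus that of the reference genes was -0.11 to 0.15 in controls, -0.40 to -0.05 at day 1 and -0.59 to -0.50 at day 5. With the table scaled to the reference genes, the day 5 log2 differences of the 10 ranged from -1.27 for Aifm3 to -0.36 for Ncam1. In that fit 8 of the 10 were called lower, a count that follows from how the transcripts were chosen. The same fit called 425 of 14322 genes tested at day 5, both directions together. The remaining podocyte transcripts of the wider set were chosen on these same samples and are no independent evidence of direction. Of those 22 genes, 13 were called lower at day 5 and 2 at day 1, Vash1 and Dynll2. Over all genes tested the shares called lower were 0.789% at day 5 and 0.0349% at day 1. The 22 had median log2 differences of -0.58 at day 5 and -0.33 at day 1.

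The families of the 10 proteins were called at about the share of all genes tested. That share was 0.789% called lower and 2.42% called higher at day 5. Of 97 relatives and pathway partners in 10 lists, 77 passed the filter, and of these 0 were called lower on either day and 1 was called higher at day 5. That gene was Ch25h, the cholesterol 25-hydroxylase, with 2.52 TPM in controls and 5.83 TPM at day 5 (log2 difference 1.18, limma adjusted p = 0.0294). The median day 5 log2 difference of the 77 was 0.02, with a range of -0.58 to 1.18, and 36 of them were below 0. St8sia4, a polysialyltransferase that modifies Ncam1, had a log2 difference of 0.48 at day 5 (limma adjusted p = 0.0308), short of the fold threshold.

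Closest relatives were measured one by one, as group means in TPM for controls, day 1 and day 5. The nucleosome assembly protein Nap1l4 had 116, 120 and 111 TPM. Cacna2d1, the only other Cacna2d gene to pass the filter, had 21.7, 22.1 and 25.2 TPM. Neither passed the test at either day. Fam117b, a relative of Glcci1, had 153, 133 and 149 TPM, and Fam117a 4.83, 4.66 and 4.45 TPM. Cingulin (Cgn), the paralog of Cgnl1, had 0.681, 1.14 and 1.23 TPM, far below Cgnl1. The nonerythroid beta spectrin Sptbn1 had 486, 450 and 495 TPM, far above Sptb, and its alpha partner Sptan1 352, 317 and 324 TPM. Of the other RASSF genes, Rassf8 had 86.1, 68.9 and 63.6 TPM, a day 5 log2 difference of -0.40 that did not pass (limma adjusted p = 0.0695). Cdr2l had 25.4, 26.5 and 27.3 TPM, Aifm1 37.6, 40.9 and 35.3 TPM, and Aifm2 21.8, 20.4 and 21.6 TPM. Ncam2, at 0.107, 0.22 and 0.159 TPM, was below the filter. In the sterol group, Cyp27b1, the vitamin D 1-alpha-hydroxylase, averaged 0.615, 1.11 and 0.733 TPM, and Cyp7a1 was listed at 0 throughout.

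**Figure D4:**
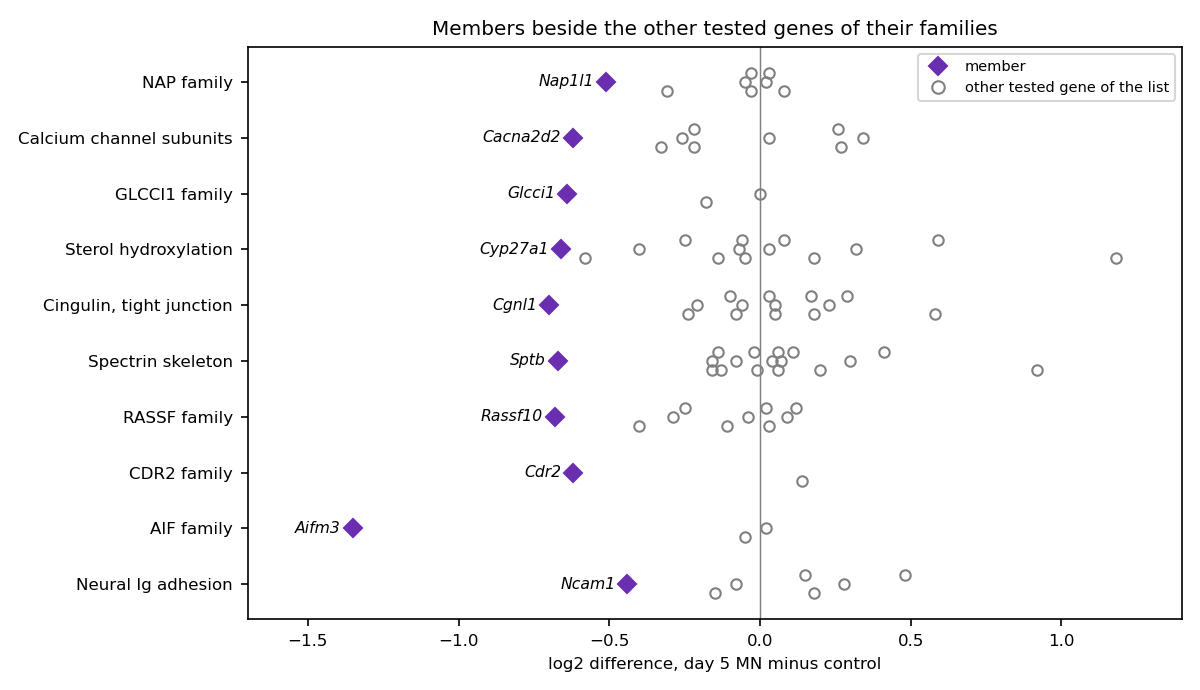
log2 difference of day 5 MN minus control (horizontal axis) for each of the 10 transcripts (diamonds) and for the other tested genes of its family or pathway list (open circles, spread vertically for legibility). The 10 lie between -1.35 and -0.44 and the other 77 genes between -0.58 and 1.18.

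Genes that are not among the 10 but followed them most closely were ranked by the root-mean-square difference between their control-centred log2 level and the median of the 10 over the 13 libraries, among 11197 genes with a mean of at least 5 TPM. The nearest was Hoxc8, a homeobox transcription factor gene, with a difference of 0.0823 and means of 81.0, 65.4 and 52.4 TPM in controls, day 1 and day 5. Dennd11 followed at 0.0946, with 25.0, 19.0 and 16.5 TPM. Pard3b, a polarity protein gene also in the wider set of podocyte transcripts, was next at 0.103, then Sulf1, a heparan sulfate 6-O-endosulfatase, at 0.116 and Tshz2 at 0.117. Among the 10 themselves Cyp27a1 lay nearest to the median at 0.0764 and Aifm3 farthest at 0.534.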

How the data were processed

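RNA of isolated glomeruli was sequenced in 13 libraries, 1 per mouse. Per the labels and the study's methods, the authors checked reads with FastQC 0.11.9, trimmed them with Trimmomatic 0.39 and quantified transcripts with kallisto 0.46.2 (GRCm39, Ensembl 104). They deposited TPM per gene symbol, summing to between 989773.7 and 996064.4 per library, so counts and depth are unknown. No libraries were identical. Libraries were rescaled by factors from medians of ratios (0.955 to 1.042), genes were kept at 1 TPM or more in no fewer than 4 libraries, and log2(TPM + 0.5) was tested with limma 3.58.1 in R 4.3.3 over all 3 groups (trended eBayes, Benjamini-Hochberg adjustment over 14322 genes). Fold changes are on this scale, which understates those of low genes. A call needed an adjusted p under 0.05 and an absolute log2 difference above 0.5. The script was tested on simulated data. Glomeruli were isolated enzymatically or mechanically in the study, which names the mechanical approach for co-immunoprecipitation. The approach used for these libraries is not stated outright.

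The members and lists were chosen with earlier results of these data known. Named genes were the members, list genes called or paralogous to a member, the lists' defining markers, and the 5 nearest genes by library profile. Kirrel1 is listed under its older symbol Kirrel. Sequences come from RefSeq (GRCm38.p6), loci and overlaps from GENCODE annotation of GRCm39 with BLAST+ 2.17.0, at 90% identity or more over at least 50% of a transcript. The alternatives were other pseudocounts, scalings, filters, variance models, fits, a tubule covariate and each library left out. Same-numbered replicates do not share a stated origin.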

Additional observations from a re-analysis of the deposited data

Results flagged for a closer look

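Of 30 groups of values (10 transcripts in 3 groups), 3 held a library far from the others by the gap to its nearest neighbour divided by the group's range, and chance gives about 1 in 20. The gap ratio was 0.92 for Glcci1 and 0.92 for Sptb, each through the high day 1 replicate 4, and 0.926 for Aifm3 through the high day 5 replicate 4. In the comparison of day 5 with day 1, the test of the difference between the days was passed by 3 distal tubule and collecting duct genes outside the 10: Aqp2, a water channel (log2 difference -1.30, limma adjusted p = 0.0286), Calb1, a calcium-binding protein (-1.39, limma adjusted p = 0.0313), and Pvalb, parvalbumin (-1.38, limma adjusted p = 0.00846). Their part in the values of the 10 transcripts was not tested.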

How the results depend on the processing

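At day 5 the 10 transcripts kept their direction in all 260 values recomputed, and 241 kept their call or lack of one. The transcripts were chosen on this difference, so these counts describe the refits and are no independent evidence of it. The call was lost by Glcci1 in 15 of 26 alternatives (its adjusted p was 0.0153 to 0.149), by Nap1l1 in 3 and by Sptb in 1, the replicate block. The count called was 7 to 9 and the median -0.68 to -0.57 over the alternatives, and with 1 library left out 7 to 9 and -0.6823 to -0.5885. At day 1, 255 of 260 values kept their direction and 258 their call or lack of one. The median was -0.3982 to -0.2611 with 1 library left out and -0.518 with a tubule score as covariate. The count called at day 1 was 0 to 1 with 1 library left out: it was 1, Cacna2d2, without day 1 replicate 4, and 1 without control replicate 5 and day 1 replicate 4 together, an alternative chosen after seeing the data. Sptb at day 1 turned above 0 with array quality weights (0.0026), the replicate block (0.031), scaling to podocyte markers (0.0171), without control replicate 5 (0.0319) and without day 1 replicate 3 (0.0049), within -0.1511 to 0.0319 over single libraries left out. Over all genes, 13 were called at day 1, but 7 without the variance trend, 6 with no filter, 2 with only the 2 compared groups, 149 with the replicate block, 8 scaled to podocyte markers, 0 with the tubule covariate, 62 without both libraries named above, and 3 to 218 with 1 library left out, the 218 without control replicate 5. At day 5, 460 were called, 326 to 474 with 1 library left out and 876 by adjusted p alone. The causes were not tested. Deviations of same-numbered libraries correlated at -0.0563 to 0.0913 over 12 pairs, which shows no sign of pairing but cannot exclude a shared origin. With the replicate block, 0 of the 10 were called at day 1 and 7 at day 5. Without read counts, what depth limits is unknown.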
